A study of Homo sapiens with 45 samples.

Results

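Retinoic acid is a signal made inside cells from vitamin A, and the genes described here make it, break it down or answer to it. The 7 genes were ALDH1A1, ALDH1A2 and ALDH1A3, whose aldehyde dehydrogenases make retinoic acid from retinaldehyde, CYP26A1, CYP26B1 and CYP26C1, whose cytochrome P450 enzymes oxidise it, and RARB, a nuclear receptor that binds it. RARB is thus not an enzyme, unlike the other 6. A contact was assigned to a gene when the captured fragment or the fragment joined to it, both on the same chromosome (cis), reached within 1000 bp of either annotated end of the gene. This rule found 73 pairs of fragments for the 7 genes, out of 152688 cis pairs and 434524 pairs in all.

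The pairs come from poised-enhancer capture Hi-C, an assay that ligates DNA fragments lying together in fixed nuclei after cutting with the enzyme DpnII and pulls down those that carry a poised enhancer. The cells were HNES1, an established human embryonic stem cell line, taken on day 5 after leaving naive culture conditions for the primed state. One group received UNC6852 at 2.5 µM, a degrader aimed at EED, part of Polycomb repressive complex 2 (PRC2), another received UNC1999 at 1 µM, an inhibitor of its catalytic subunits EZH1 and EZH2, and the control group received the solvent DMSO. Additions began 24 h before day 0 and were renewed daily in all groups, in a medium whose B27 supplement contained vitamin A. Each group had 15 libraries from 3 biological replicates, and the values analysed here are 1 profile per group, pooled over its libraries. Each comparison thus has 1 value on either side, so the spread of replicates is unknown and no test was run. Both compounds were set against the same DMSO profile, and their doses differed, so their values stand side by side.

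In embryos, the ALDH1A enzymes are sources of retinoic acid and the CYP26 enzymes are sinks, and together they shape its gradients along the body axis, in the hindbrain, eye and limb. Retinoic acid receptors bind DNA with RXR partners at response elements, often direct repeats of a short half-site, and genes for CYP26A1 and RARB are known targets with such elements near a start site. PRC2 deposits the H3K27 methylation found on many silent developmental genes in pluripotent cells. Expression, EED protein and histone methylation were not measured in this assay, so neither the state of the cells nor the action of the compounds was checked against markers.

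The response elements named above can be read in the reference sequence. They are shown here because the start sites that carry them differ in whether a listed fragment overlaps them. RefSeq sequences of GRCh38.p14 gave 12 windows from 250 bases before to 50 bases after a start for all 7 genes. A direct repeat with 5 bases between the half-sites (DR5, searched on either strand) occurred in 2 of these 12 windows and in 31 of 34943 windows of all genes (0.0887%). Both windows belong to the known targets named above, so the count is a description and not a test. One lies before the second listed start of CYP26A1, on the minus strand of chr10:93073803-93073819, and the other before an inner start of RARB, on the plus strand of chr3:25428210-25428226. Half-sites searched were AGGTCA or, in place of it, AGTTCA, and with G as first base either GGTTCA or, likewise, GGGTCA. The half-sites are in capitals.

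CYP26A1 DR5: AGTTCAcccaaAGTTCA
RARB DR5: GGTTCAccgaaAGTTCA

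The CYP26A1 element lay inside a listed fragment, chr10:93073265-93078991, which spans the whole gene. No listed fragment overlapped the RARB window that holds its element. A captured fragment with listed pairs, chr3:25426425-25426928, ended before that window, whose upstream bases start at 25428013. The repeat with 2 bases between half-sites (DR2) was in 0 of the 12 windows and in 13 of the 34943. Single half-sites, which the repeats also contain, were in 6 of the 12 and in 38.6% of all windows, so they are common in any such window.

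Where the fragments end was visible at 2 start sites that touched listed contacts, the first start of CYP26A1 (upstream bases chr10:93073225-93073474, plus strand) and an inner start of RARB other than the one with the DR5 (upstream bases chr3:25340552-25340801, plus strand). Both upstream sequences are printed with the DpnII site GATC in capitals, since it set the edges of the fragments. The site was found in 4 of the 12 windows and in 41.8% of all windows.

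CYP26A1 first start: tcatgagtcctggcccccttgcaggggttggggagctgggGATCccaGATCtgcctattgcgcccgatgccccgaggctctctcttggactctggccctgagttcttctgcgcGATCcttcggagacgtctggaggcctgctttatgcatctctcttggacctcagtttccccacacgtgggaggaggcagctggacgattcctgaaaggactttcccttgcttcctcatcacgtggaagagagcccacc
RARB inner start: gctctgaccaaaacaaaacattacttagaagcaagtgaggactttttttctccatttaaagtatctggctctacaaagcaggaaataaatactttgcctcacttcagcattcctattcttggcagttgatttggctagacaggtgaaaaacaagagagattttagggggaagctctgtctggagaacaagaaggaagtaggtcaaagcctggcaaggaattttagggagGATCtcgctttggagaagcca

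In the CYP26A1 sequence the first of 3 GATC sites, at base 93073265, is where a captured fragment of 123 bp ended and the fragment of 5727 bp over the gene began. Because that longer fragment holds the other 2 sites, it joins several DpnII fragments in 1 unit. Uncaptured other ends had a median length of 5265 bp over the whole table, against 625 bp for captured fragments. In the RARB sequence the single site, at base 25340781, separated 2 listed fragments.

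A CHiCAGO score states how far the reads that join 2 fragments exceed a background that allows for distance and capture. A pair with a score of at least 5 is named a called contact, and every listed pair reached 5 in at least 1 profile. Of the 73 pairs, 40 were called in UNC6852, 30 in UNC1999 and 38 in DMSO. Over all cis pairs, 46.1% were called in UNC6852, 42.3% in UNC1999 and 42.4% in DMSO. A set of 10 pairs (13.7%, exact 95% interval 6.77 to 23.8) were called in all 3 profiles, against 8.33% of all cis pairs. Of these 10, 7 were pairs of ALDH1A2. Most were called in a single profile, 48 of 73. Of the 38 contacts called in DMSO, 15 were also called in UNC6852 and 15 in UNC1999 (39.5% each, exact 95% interval 24.0 to 56.6). The shares over all DMSO contacts in cis were 31.4% kept in UNC6852 and 29.3% kept in UNC1999, both inside that interval. ALDH1A2 gave 20 of the 38 DMSO contacts, of which UNC6852 kept 10 and UNC1999 kept 8. Without ALDH1A2, 5 of 18 were kept in UNC6852 (27.8%) and 7 of 18 in UNC1999 (38.9%). Overlapping fragments and shared captured fragments mean that the 73 pairs are not independent, and the intervals cover counting error only.

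The share kept differs with distance over all pairs, so both are given by distance. Of the 73 pairs, 57 spanned 100 to 500 kb (78.1%, against 64.5% of all cis pairs). In this class 9 of 57 were called in all 3 profiles (15.8%, exact 95% interval 7.48 to 27.9), against 9.42% of all pairs of that span. The 7 pairs of ALDH1A2 called in all 3 were among these 9. Both compounds kept 14 of the 33 DMSO contacts in that class (42.4%, exact 95% interval 25.5 to 60.8), against 34.3% in UNC6852 and 32.0% in UNC1999 over all genes. The 13 pairs of over 500 kb held 3 DMSO calls, and neither compound kept any of the 3. Such calls were seldom kept over all genes either, with 19.9% kept in UNC6852 and 18.0% in UNC1999 at 0.5 to 2 Mb, and 12.6% and 12.1% over 2 Mb.

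Scores were also compared as differences on the inverse hyperbolic sine (asinh) scale, which behaves like a logarithm for high scores and allows 0. The score was higher in UNC6852 than in DMSO for 32 of the 73 pairs, lower for 39 and equal for 2, where 50.8% of all cis pairs were higher. The median difference was -0.087, against 0.021 over all cis pairs. For UNC1999, 28 pairs were higher than in DMSO, 41 were lower and 4 were equal, where 47.9% of all cis pairs were higher. The median difference was -0.10, against 0 over all cis pairs. Both medians of the 73 pairs lay well inside the quartiles of all cis pairs, which were -0.62 and 0.78 for UNC6852 and -0.70 and 0.70 for UNC1999. ALDH1A2 alone gave 29 of the 73 pairs. Without it, the median difference was 0.051 in UNC6852 and 0 in UNC1999.

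**Figure D1:**
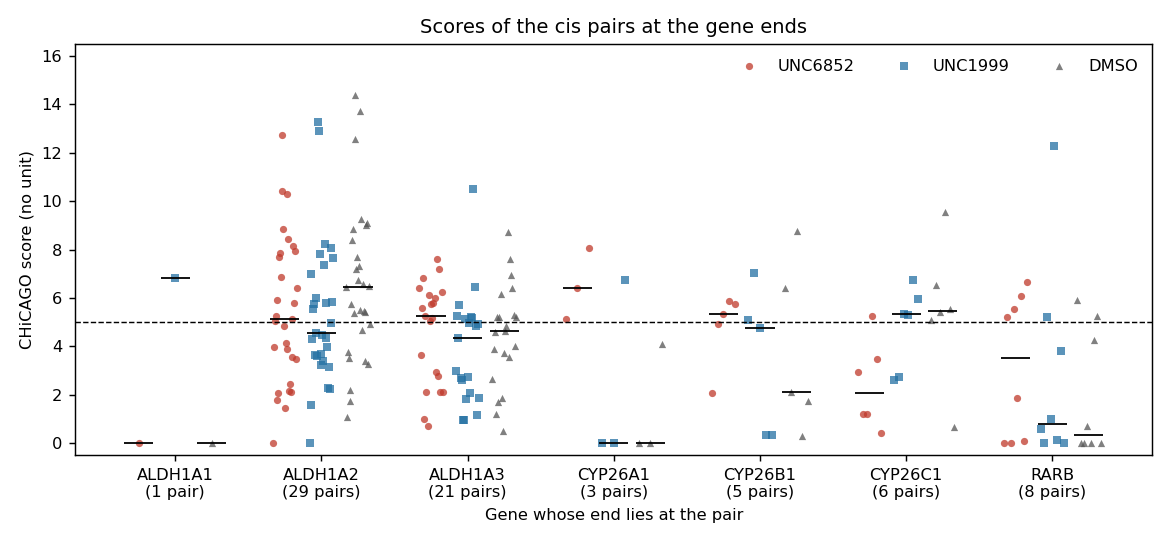
CHiCAGO score (no unit) of each of the 73 cis pairs, grouped by gene, with UNC6852, UNC1999 and DMSO from left to right within a gene; bars are medians and the dashed line is the score of 5 at which a pair is called. ALDH1A2 holds 29 pairs and the highest score, 14.4 in DMSO, and the 3 CYP26A1 pairs are above 5 in UNC6852 while none is in DMSO.

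Among the synthesis genes, ALDH1A2 had the most contacts and the strongest ones. ALDH1A2 (gene ID 8854, chr15:57953429-58065711, minus strand) is the main retinoic acid source of the early embryo. Its 29 pairs began at 2 captured fragments by the 5′ end, chr15:58064106-58064725, which lies 986 bp inside the gene and had 21 pairs, and chr15:58064726-58065467, which is 244 bp from the end and had 8. Of the 29 pairs, 16 were called in UNC6852, 13 in UNC1999 and 20 in DMSO, and 7 were called in all 3. UNC6852 kept 10 of its 20 DMSO contacts and UNC1999 kept 8.

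The ALDH1A2 contacts reached past the 3′ end of the gene, mainly into 2 stretches of chromosome 15. The longer one, chr15:57706770-57792893, held 13 partner fragments and 19 pairs, of which 11 were called in UNC6852, 7 in UNC1999 and 15 in DMSO. It starts at the ends of POLR2M, which encodes a regulator of RNA polymerase II, and of GCOM1, which overlaps POLR2M. From there it runs over the long noncoding RNA gene LOC105370834. The shorter one, chr15:57857402-57885140, held no end of a protein-coding gene. There 6 pairs joined 4 partners, and 3 were called in UNC6852, 5 in UNC1999 and 4 in DMSO.

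The strongest pair of ALDH1A2 joined the inner captured fragment to chr15:57749664-57754722, 312 kb away in LOC105370834, and scored 12.7 in UNC6852, 12.9 in UNC1999 and 14.4 in DMSO. The partner next to it, 317 kb away, scored 10.4 in UNC6852, 13.3 in UNC1999 and 12.6 in DMSO. These 2 pairs were above 10 in every profile. A pair in the shorter stretch, chr15:57857402-57864202 at 204 kb, scored 10.3 in UNC6852, 7.37 in UNC1999 and 13.7 in DMSO. Its neighbour at 198 kb scored 8.43 in UNC6852, 8.23 in UNC1999 and 9.26 in DMSO. Both were highest in DMSO. The pair at 307 kb had the other order, with 8.84 in UNC6852, 7.82 in UNC1999 and 7.18 in DMSO.

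Single pairs of ALDH1A2 differed from DMSO both outside these stretches and within the longer one. A pair at 506 kb scored 3.99 in UNC6852, 6.98 in UNC1999 and 1.07 in DMSO, the largest positive difference for both compounds (1.17 and 1.71 on the asinh scale). The largest negative one joined the gene to a fragment in RYR3, a calcium channel gene 24584 kb away, which scored 0 in both treated profiles and 6.44 in DMSO. Within the longer stretch, the pair at 296 kb scored 1.45 in UNC6852, 3.25 in UNC1999 and 6.76 in DMSO, a difference of -1.44 for UNC6852 and -0.72 for UNC1999.

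The 2 adjoining captured fragments of ALDH1A2 give separate readings of the same region. They shared 8 partners, and each of the 8 scored higher from the inner fragment in all 3 profiles. The median of the 8 was 8.63 from the inner and 5.45 from the outer fragment in UNC6852, 7.60 and 4.46 in UNC1999, and 9.05 and 5.44 in DMSO. Partners called from both fragments numbered 5 in UNC6852, 3 in UNC1999 and 5 in DMSO. The same partner could thus differ between adjoining captured fragments by as much as between profiles. From the outer fragment the partner at 318 kb scored 8.15 in UNC6852, 2.26 in UNC1999 and 9.01 in DMSO, while from the inner one it was highest in UNC1999.

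**Figure D2:**
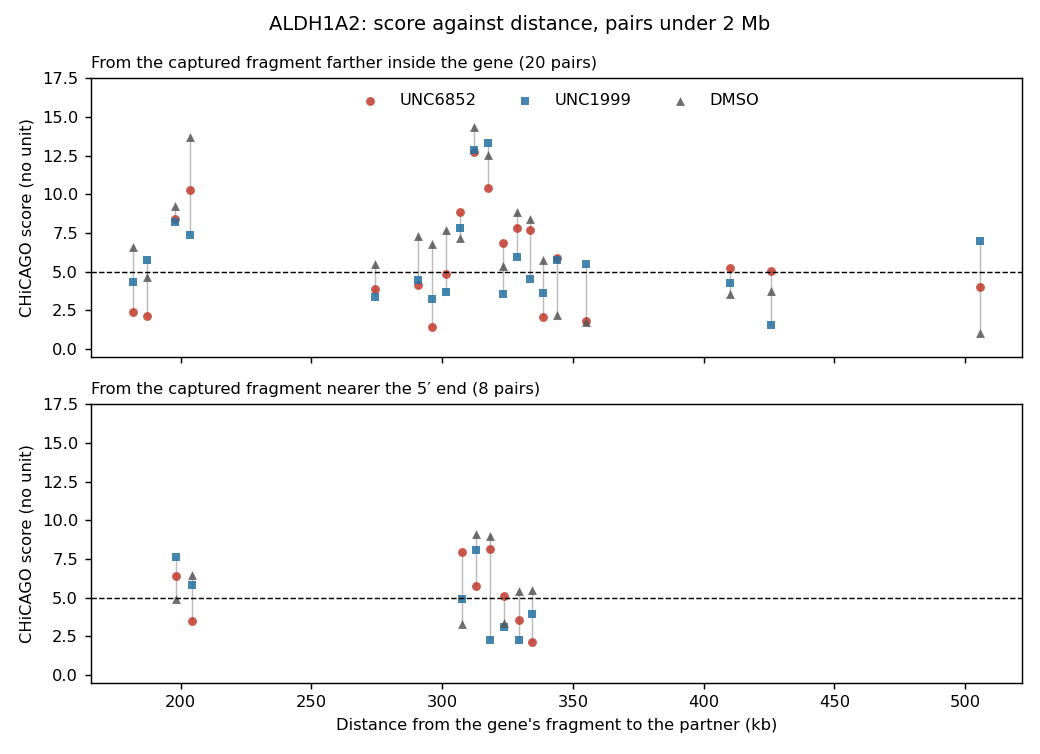
CHiCAGO score (no unit) of the 28 ALDH1A2 pairs under 2 Mb against distance to the partner in kb, for the captured fragment farther inside the gene (top) and the one nearer its 5′ end (bottom); circles are UNC6852, squares UNC1999 and triangles DMSO, grey lines join the 3 scores of a pair, and the dashed line is a score of 5. From the fragment farther inside, scores peak at 198 to 204 kb and at 312 to 317 kb in all 3 profiles, and the 8 shared partners are lower from the outer fragment.

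ALDH1A3 (gene ID 220, chr15:100879831-100916626, plus strand), a synthesis enzyme known from the developing eye and nasal region, had 21 pairs. Of these, 13 were called in UNC6852, 7 in UNC1999 and 9 in DMSO, and 2 were called in all 3. The fragment on the gene lay at the 5′ end in 10 pairs and at the 3′ end in 11. In 2 of these 11 it was the other end of a captured fragment in LRRK1.

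The partners of ALDH1A3 lay on both sides. Upstream, 10 pairs joined it to 6 fragments in the body of ASB7, a ubiquitin ligase adaptor gene, at chr15:100611148-100650055, and 8 of these were called in UNC6852, 3 in UNC1999 and 1 in DMSO. Downstream, 7 pairs reached chr15:101241327-101268350 around an end of CHSY1, a chondroitin synthase gene, and 3 were called in UNC6852, 3 in UNC1999 and 5 in DMSO. These stretches were set by gaps of over 20 kb between partners, and counts within them were read after the values were seen. Neither stretch can be called different between profiles, for want of replicates.

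The strongest ALDH1A3 pair joined its 3′ end to chr15:101252628-101257630 at the CHSY1 end, 337 kb away, and scored 7.59 in UNC6852, 10.5 in UNC1999 and 7.61 in DMSO. A partner 84.6 kb away in LRRK1, a kinase gene, scored 5.996 in UNC6852, 5.22 in UNC1999 and 8.73 in DMSO. These were the 2 pairs called in all 3 profiles. The pair at 348 kb missed that in UNC1999 only, with 7.20 in UNC6852, 4.83 in UNC1999 and 6.43 in DMSO.

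In the ASB7 body the fragment chr15:100633912-100639038 was met from 3 captured fragments of ALDH1A3. From the fragment before the 5′ end it scored 6.82 in UNC6852, 5.70 in UNC1999 and 1.19 in DMSO. From the fragment just inside the gene it scored 6.14 in UNC6852, 5.12 in UNC1999 and 1.86 in DMSO. From the 3′ end, it scored 5.16 in UNC6852, 4.95 in UNC1999 and 4.65 in DMSO. Both readings at the 5′ end were thus low in DMSO alone, and the one at the 3′ end was near 5 in every profile. The largest positive difference for UNC6852 lay elsewhere, 364 kb away in CHSY1 (5.06 in UNC6852, 1.83 in UNC1999 and 0.522 in DMSO). The largest negative one for both compounds was at 382 kb, with 0.728 in UNC6852, 0.967 in UNC1999 and 6.15 in DMSO.

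**Figure D3:**
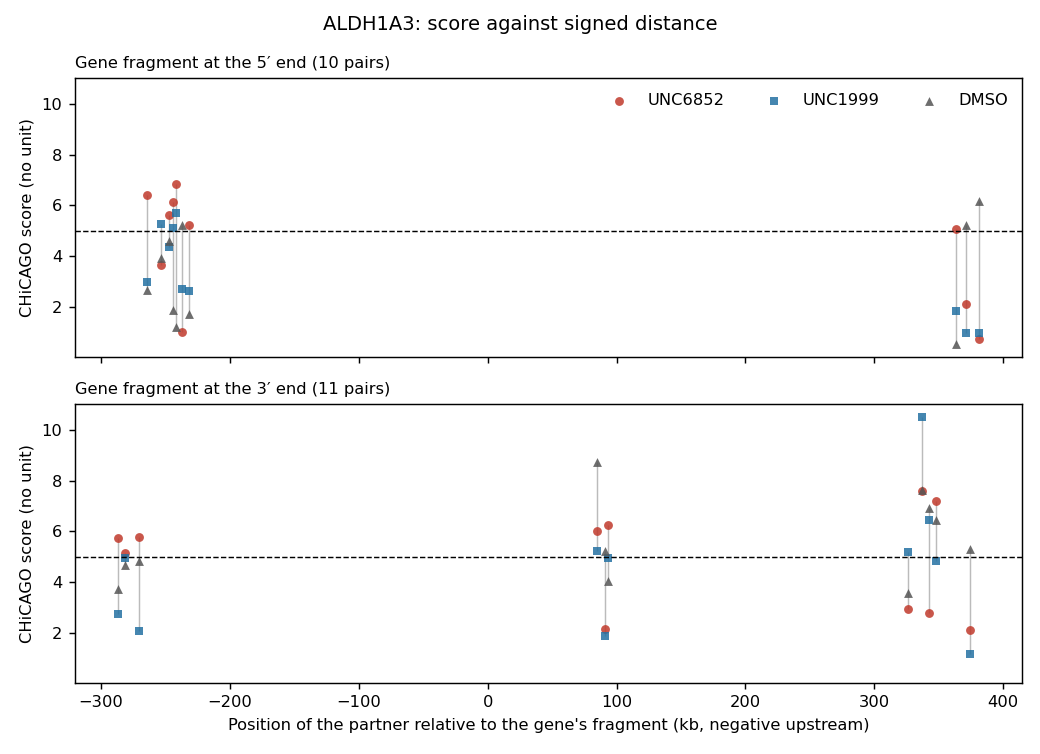
CHiCAGO score (no unit) of the 21 ALDH1A3 pairs against the position of the partner relative to the gene's fragment in kb, negative upstream, for pairs that begin at the 5′ end (top) and the 3′ end (bottom); circles are UNC6852, squares UNC1999 and triangles DMSO, grey lines join the scores of a pair, and the dashed line is a score of 5. Partners fall into an upstream group 231 to 287 kb away in ASB7 and downstream groups in LRRK1 and around CHSY1.

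ALDH1A1 (gene ID 216, chr9:72900671-72953053, minus strand), the form found in many adult tissues, had 1 pair. It was uncaptured and joined a captured fragment by GRIN3A, a glutamate receptor subunit gene, 28784 kb away. The pair scored 0 in UNC6852, 6.84 in UNC1999 and 0 in DMSO. With 1 pair at that distance the gene gives no profile of its own.

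Among the breakdown genes the pairs were few. CYP26A1 and CYP26C1 are neighbours on chromosome 10, and their partners all lay to 1 side of them, in MYOF, a membrane repair gene, or at the end of CEP55 beyond it. CYP26A1 (gene ID 1592, chr10:93073475-93077885, plus strand) had 3 pairs, of which 3 were called in UNC6852, 1 in UNC1999 and 0 in DMSO. CYP26C1 (gene ID 340665, chr10:93060798-93069540, plus strand) had 6, of which 1 was called in UNC6852, 4 in UNC1999 and 5 in DMSO.

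The pair that stood out for CYP26A1 in 2 profiles joined the 5727 bp fragment over the gene, shown above with its DR5 element, to a captured fragment at an end of MYOF 406 kb away. It scored 8.06 in UNC6852, 6.76 in UNC1999 and 4.12 in DMSO. The other 2 pairs began at the 123 bp captured fragment before the first start. One reached the MYOF body at 265 kb, with 5.14 in UNC6852 and 0 in both UNC1999 and DMSO. The other reached an end of CEP55, a cell division gene, at 425 kb, with 6.40 in UNC6852 and 0 in both UNC1999 and DMSO. All 3 pairs were highest in UNC6852, and each pair is listed only because it reached 5 somewhere, so a pair with 0 in the other 2 profiles had to be called in the remaining 1.

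The pairs of CYP26C1 began at 1 captured fragment over its 3′ end, chr10:93068986-93070578, and all 6 partners lay in MYOF, 251 to 348 kb away. The strongest, at 284 kb, scored 5.25 in UNC6852, 5.31 in UNC1999 and 9.57 in DMSO, and was the only pair of a CYP26 gene called in all 3. A partner at 289 kb scored 3.48 in UNC6852, 6.76 in UNC1999 and 5.54 in DMSO. One at 273 kb scored 1.21 in UNC6852, 5.36 in UNC1999 and 5.42 in DMSO. All 6 pairs were lower in UNC6852 than in DMSO. For UNC1999, 2 were higher and 4 were lower. The largest positive difference for UNC1999 was at 348 kb, with 0.424 in UNC6852, 5.95 in UNC1999 and 0.660 in DMSO.

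The neighbours met at 1 shared fragment, chr10:93335418-93340540 in MYOF. From CYP26A1 it scored 5.14 in UNC6852, 0 in UNC1999 and 0 in DMSO. From CYP26C1 it scored 1.20 in UNC6852, 2.76 in UNC1999 and 6.54 in DMSO, the largest negative difference of that gene for both compounds. This MYOF fragment thus scored highest in UNC6852 from CYP26A1 and in DMSO from CYP26C1, whose captured fragments lie 2564 bp apart. When gene ends were widened to 5000 bp, the window of each gene also reached the fragments of the other. CYP26A1 then had 13 pairs and CYP26C1 had 15, with pairs of both genes in either set. With these overlapping sets, the CYP26C1 difference was 0.43 in UNC6852 and 0.32 in UNC1999. That of CYP26A1 was 0.51 in UNC6852 and 0.22 in UNC1999.

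**Figure D4:**
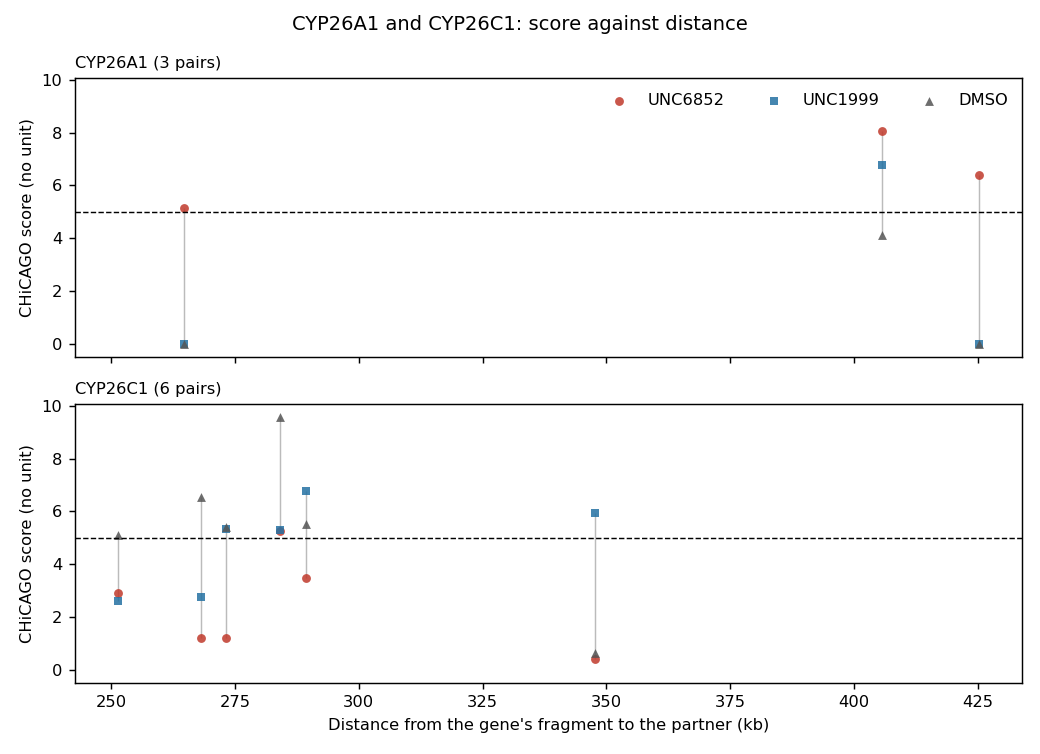
CHiCAGO score (no unit) of the 3 CYP26A1 pairs (top) and the 6 CYP26C1 pairs (bottom) against distance to the partner in kb; circles are UNC6852, squares UNC1999 and triangles DMSO, grey lines join the scores of a pair, and the dashed line is a score of 5. All CYP26A1 pairs are highest in UNC6852, and all CYP26C1 pairs are lower in UNC6852 than in DMSO.

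CYP26B1 (gene ID 56603, chr2:72129238-72147862, minus strand), a breakdown enzyme known from limb and skeletal development, had 5 pairs from 1 captured fragment by its 5′ end, chr2:72146038-72146932. Of these, 3 were called in UNC6852, 2 in UNC1999 and 2 in DMSO, and none in all 3. The strongest, 218 kb away, scored 5.35 in UNC6852, 4.77 in UNC1999 and 8.78 in DMSO. A partner at 228 kb scored 4.92 in UNC6852, 7.04 in UNC1999 and 2.10 in DMSO. The last on that side, at 340 kb, scored 2.07 in UNC6852, 5.08 in UNC1999 and 6.41 in DMSO. These 3 partners held no gene end.

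The other 2 CYP26B1 partners lay on the upstream side in EXOC6B, a gene of the exocyst complex. The one at 580 kb scored 5.90 in UNC6852, 0.326 in UNC1999 and 0.299 in DMSO. The one at 608 kb scored 5.74 in UNC6852, 0.320 in UNC1999 and 1.75 in DMSO. Both were called in UNC6852 alone, while the strongest pair was highest in DMSO. With gene ends widened to 5000 bp, CYP26B1 had 33 pairs and the mean difference in UNC6852, 0.51 with the 5 pairs, was -0.015.

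RARB (gene ID 5915, chr3:24829321-25597932, plus strand), a receptor for retinoic acid whose inner start is a classic target of it, had 8 pairs from 2 captured fragments near its 5′ end. Of these, 4 were called in UNC6852, 2 in UNC1999 and 2 in DMSO, and each was called in 1 profile only. Inside RARB itself lay 5 of the 8 partners, 508 to 744 kb away, and 3 lay over 2 Mb away. The strongest pair, at 733 kb, scored 1.86 in UNC6852, 12.3 in UNC1999 and 0 in DMSO. The next fragment, at 739 kb, scored 6.08 in UNC6852, 0.124 in UNC1999 and 4.27 in DMSO. The one after it, at 744 kb, scored 0.0935 in UNC6852, 3.83 in UNC1999 and 5.26 in DMSO. Each of these 3 adjoining fragments was thus highest in a different profile.

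The pair at 508 kb ended at chr3:25334926-25340780, which touches the upstream sequence of the inner start printed above. That start is not the one with the DR5 element. The pair scored 0 in UNC6852, 0.590 in UNC1999 and 5.92 in DMSO. The largest positive difference for UNC6852 was with a fragment in CBLB, a ubiquitin ligase gene 81024 kb away, which scored 6.65 in UNC6852 and 0 in both UNC1999 and DMSO. With pairs of up to 2 Mb alone, the mean difference of RARB was -0.25 in UNC6852 and -0.17 in UNC1999, against 0.46 and 0.19 with all 8 pairs.

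Contacts within RARB were better covered from captured fragments inside the gene, which the choice of ends leaves out and which were counted after the values of the ends had been seen. The gene body had 35 pairs, of which 24 had both ends in the gene. Over the 35 pairs, 17 were called in UNC6852, 10 in UNC1999 and 14 in DMSO. Of the 24 inner pairs, 2 were called in all 3 profiles, and both began at chr3:24952151-24953303. The pair at 623 kb scored 6.14 in UNC6852, 8.46 in UNC1999 and 5.64 in DMSO. The pair at 638 kb scored 6.26 in UNC6852, 9.45 in UNC1999 and 5.33 in DMSO. Both reached the 3′ part of RARB, where the adjoining fragments met from the 5′ end at 733 to 744 kb also lie. Other inner pairs began at captured fragments chr3:25425913-25426424 and chr3:25426425-25426928, which lie before the start with the DR5. Each of these pairs was called in 1 profile only.

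The mean difference per gene was taken over its pairs and is given for the 6 genes with at least 3 pairs. For UNC6852 minus DMSO it was -0.23 for ALDH1A2, 0.024 for ALDH1A3, 1.85 for CYP26A1, 0.51 for CYP26B1, -0.79 for CYP26C1 and 0.46 for RARB. Of these, 4 genes were higher and 2 lower, where 56.4% of 4978 genes with at least 3 pairs were higher. For UNC1999 minus DMSO it was -0.23 for ALDH1A2, -0.15 for ALDH1A3, 0.16 for CYP26A1, -0.13 for CYP26B1, -0.0018 for CYP26C1 and 0.19 for RARB. Here 2 genes were higher and 4 lower, where 49.2% of all such genes were higher. The medians of the 6 were 0.24 in UNC6852 and -0.067 in UNC1999, against 0.069 and -0.0075 over all genes. The UNC1999 values of all 6 lay within the quartiles of all genes (-0.32 and 0.31), and of the UNC6852 values only that of ALDH1A2 and that of ALDH1A3 did (-0.24 and 0.37).

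The scale of the scores bears on these signs. When the 3 profiles were given the same distribution of scores by quantile normalization, the median of all genes was -0.14 for UNC6852 and -0.23 for UNC1999. Relative to the median of all genes, CYP26A1 stood at 1.78 for UNC6852 with the scores as deposited and at 1.94 with quantile-normalized scores, and CYP26C1 stood at -0.85 and -0.89. ALDH1A3, higher by 0.024 in UNC6852 before normalization, was at -0.045 relative to that median as deposited and at -0.043 after normalization. CYP26B1 stood at 0.44 and 0.33, RARB at 0.39 and 0.50, and ALDH1A2 at -0.30 and -0.24. Signs relative to all genes were thus the same under both scalings for UNC6852, and so they were for UNC1999.

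**Figure D5:**
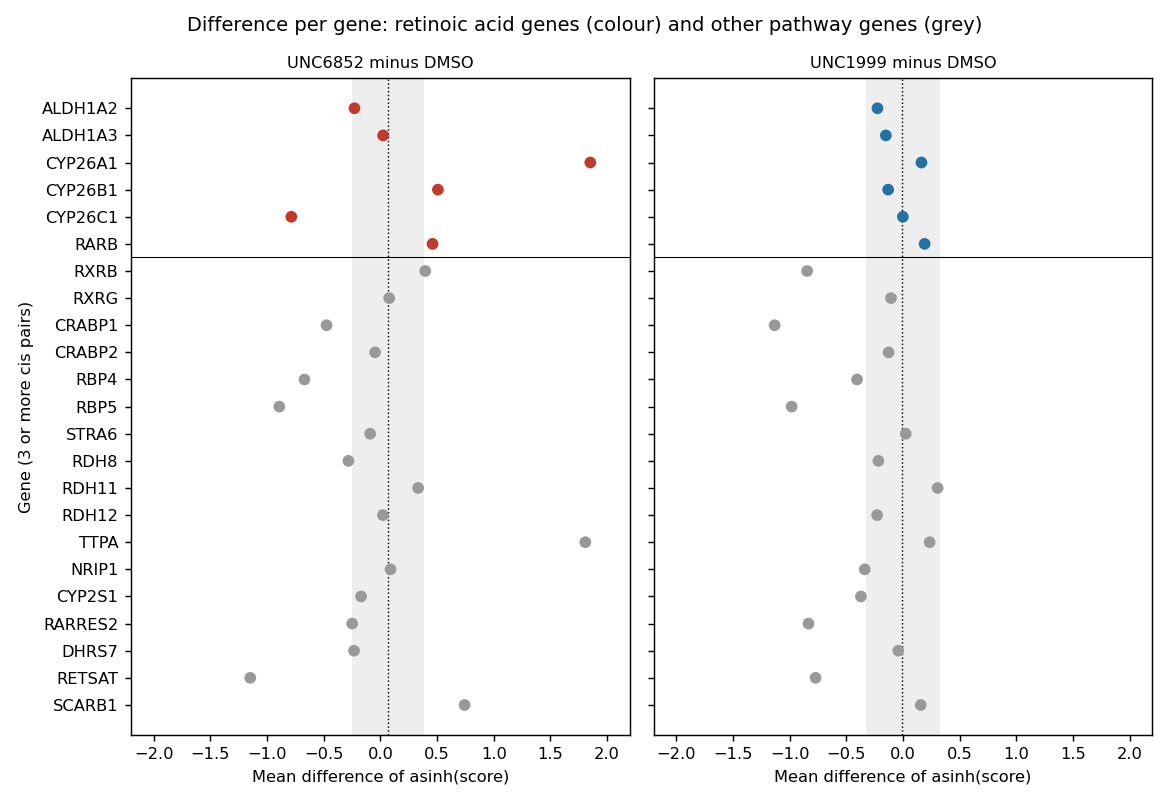
Mean difference of asinh-transformed scores per gene, UNC6852 minus DMSO (left) and UNC1999 minus DMSO (right), for the 6 retinoic acid genes with at least 3 cis pairs (colour) and 17 genes with as many from the wider list described below (grey); the shaded band spans the quartiles of 4978 genes and the dotted line is their median. CYP26A1 at 1.85 and CYP26C1 at -0.79 lie on opposite sides of the band for UNC6852, and all 6 lie within it for UNC1999.

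Other genes of the pathway, carriers, receptors, retinol enzymes and corepressors, were taken from a list of 52, all placed on the genome. The list is wider than the pathway, since it also holds TTPA, a tocopherol carrier, and SCARB1, a lipid uptake receptor. Of the 52 genes, 28 had at least 1 cis pair, 17 had at least 3, and 24 had none, among them RARA, RXRA and DHRS3. The 17 genes had a mean difference above 0 in 7 cases and below 0 in 10 for UNC6852 (median -0.090). For UNC1999, 4 were above and 13 below (median -0.23). Of all 4978 genes with at least 3 pairs, 56.4% were above 0 for UNC6852 (median 0.069) and 49.2% for UNC1999 (median -0.0075). No count here was tested.

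The carrier CRABP2, which takes retinoic acid to its receptors, had the most pairs of the list, 28, with 12 called in UNC6852, 12 in UNC1999 and 16 in DMSO. RXRG, a receptor partner, had 25, with 15 called in UNC6852, 7 in UNC1999 and 10 in DMSO. RDH11, a retinol dehydrogenase, had 17, with 8 called in UNC6852, 9 in UNC1999 and 2 in DMSO. The 2 genes with the highest and the 2 with the lowest mean difference for each compound, chosen after their values were seen, were these. For UNC6852 the highest were TTPA, a tocopherol carrier, with 1.81 in UNC6852 and 0.23 in UNC1999 (4 pairs), and SCARB1, a lipid uptake receptor, with 0.74 in UNC6852 and 0.16 in UNC1999 (12 pairs). For UNC1999 the highest were RDH11, with 0.33 in UNC6852 and 0.30 in UNC1999, and TTPA. The lowest for UNC6852 were RETSAT, a retinol saturase, with -1.15 in UNC6852 and -0.77 in UNC1999 (3 pairs), and RBP5, a retinol binding protein, with -0.89 in UNC6852 and -0.98 in UNC1999 (5 pairs). The lowest for UNC1999 were CRABP1, another carrier, with -0.47 in UNC6852 and -1.13 in UNC1999 (3 pairs), and RBP5.

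The genes nearest to each member in their 3 mean scores, among 3265 genes with at least 5 pairs, were SKAP2 and OR56A4 for ALDH1A2, MKNK1 and EPB41L4A for ALDH1A3, and POU3F3 and RAP2B for CYP26A1. For the rest they were TUB and ST3GAL1 (CYP26B1), GRAP and TARBP2 (CYP26C1), and TCEAL2 and FGD3 (RARB). Likeness was the Euclidean distance over the asinh means of the 3 profiles. The nearest of all was TUB, at 0.033 from CYP26B1, and the farthest of those named was RAP2B, at 0.19 from CYP26A1. With 3 values per gene many genes come close by number alone.

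Pairs with other chromosomes (trans) of the 7 genes numbered 95, of which 28 were called in UNC6852, 41 in UNC1999 and 26 in DMSO. Over all 281836 trans pairs, 34.3% were called in UNC6852, 36.1% in UNC1999 and 30% in DMSO. None of the 95 was called in more than 1 profile, and of all trans pairs 0.334% were. Among the cis pairs, the score was exactly 0 in UNC6852 for 4 of 73 (5.48%), in UNC1999 for 5 (6.85%) and in DMSO for 7 (9.59%). Over all cis pairs those shares were 11.1% in UNC6852, 12.5% in UNC1999 and 12.5% in DMSO. The reads behind the scores were not given, so depth and its effect on these counts were not tested.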

How the data were processed

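The deposited values are CHiCAGO scores per pair of fragments, 1 column per condition, pooled by the authors over 15 libraries, per the file headers and the labels. Scores are whole-table values as deposited, with no column of single libraries. The genome build is GRCh38, per the submitters' processing notes. Aligner, caller version and settings are not given in the sources used here, and read depth is unknown. Within a biological replicate, batch 1 held 4 libraries and batch 2 held 1, for every condition.

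Gene ends, symbols and promoter sequences came from RefSeq (GRCh38.p14). Pairs were called at a score of at least 5. Differences are of asinh scores, averaged over the pairs of a gene. Intervals are exact Clopper-Pearson 95% intervals. With 1 pooled profile per condition no test was run. Pairs named per gene were those called in all 3 profiles (the 5 with the highest mean score where more), the 3 with the highest mean score, and the largest positive and negative difference for each compound. Pairs beyond this rule (the shared MYOF, ALDH1A2 and ASB7 fragments, the ALDH1A2 pair at 296 kb and the inner RARB pairs) were chosen after their values were seen. The members and lists were chosen with earlier results of these data known. Assignment was checked on the listed cis pairs against a direct form of the rule. Averaging was checked on shuffled scores with known shifts added. Tools were Python 3.11.15 with pandas 2.3.3, numpy 2.4.6 and, for intervals, scipy 1.17.1, with plots by matplotlib 3.10.9. Alternatives (thresholds, windows, distances, scaling, merging) are given at the end.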

Additional observations from a re-analysis of the deposited data

How the results depend on the processing

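The reads behind the scores are unknown and each condition is 1 pooled profile, so no replicate could be left out. No paired analysis was possible because the score columns carry no replicate numbers. A share counts as unmoved inside the main value's 95% interval, a difference where it moved by under 0.1 without a change of sign, and a count within 1.5 times. Of 212 recomputed values, 142 were unmoved, 55 moved and 15 changed sign. The 142 include all values with pairs of at least 20 kb and with captured pairs counted once. Both settings left the 73 pairs as they were, so these values could not move. The share of DMSO calls kept, 39.5% with both compounds, was 60% (9 of 15) in UNC6852 at a score of at least 7, and 100% (3 of 3) in UNC6852 and 66.7% (2 of 3) in UNC1999 at a score of at least 10. With fragments that overlap the gene end itself (0 bp) 9 pairs were left, with none at ALDH1A2, CYP26B1 or RARB; 20% was kept in UNC6852 and 60% in UNC1999, of 5 calls. With neighbouring other ends merged, 61.1% (11 of 18) was kept with both compounds.

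The median difference over the pairs was -0.45 for UNC6852 and 0.20 for UNC1999 at 0 bp, and -0.25 for UNC1999 with quantile-normalized scores. At 0 bp, 6 of the 9 pairs were of CYP26C1. With merged ends the median was 0 for both compounds. It was also 0 for UNC1999 with gene bodies and without ALDH1A2, and 0.051 for UNC6852 without ALDH1A2. Gene bodies and the omission of ALDH1A2 were chosen after seeing the data. Of genes with at least 3 pairs, those higher than DMSO numbered 4 of 6 in UNC6852 and 2 of 6 in UNC1999. At 0 bp, and among pairs whose mean score was 5 or more, the count was 0 for both compounds, of 1 and 2 such genes. It was 1 for UNC1999 with pairs of up to 2 Mb and with the gene end on the captured fragment only.

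Signs of single genes changed as follows. ALDH1A3 in UNC6852 was at -0.13 with ends of 5000 bp, -0.18 with quantile-normalized scores and -0.15 where the mean score was 5 or more, and in UNC1999 at 0.20 at 0 bp. CYP26B1 in UNC6852 was at -0.015 with 5000 bp and -0.49 where the mean score was 5 or more (1 pair). CYP26C1 was at 0.43 in UNC6852 and 0.32 in UNC1999 with 5000 bp, where its pairs included those of CYP26A1. With merged ends CYP26C1 was at 0.29 in UNC1999. RARB was at -0.25 in UNC6852 and -0.17 in UNC1999 with pairs of up to 2 Mb, and at -0.25 in UNC1999 with gene bodies. ALDH1A2 in UNC1999 was at 0.015 with gene bodies. CYP26A1 in UNC6852 stayed above 0, between 0.51 and 2.45, in 11 alternatives. ALDH1A2 in UNC6852 stayed below 0, between -0.38 and -0.10, in 10. In both cases some alternatives, such as pairs of at least 20 kb, kept the main setting's pairs, so the sign could not change. The cause of these shifts was not tested.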
